A study of Mus musculus with 18 samples.

Results

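The comparison described here is day 5 (d5) against day 2.5 (d2.5) in Ctrl+FGF2 cells, which covers the time that O9-1 cells spent in osteoblast differentiation medium while FGF2 was present. Its members were the libraries whose titles give siCtrl with FGF2, 3 replicates of each day, so 6 of the 18 libraries of the series. O9-1 is a line of neural crest (NC) cells that was derived from mouse embryos, and the cells of all 6 libraries are labelled wildtype. They carried the scrambled siRNA (siCtrl) that served as the control of a Yap/Taz knockdown, and they received FGF2. The RNA was counted by bulk RNA-seq of poly(A) RNA. The remaining libraries are Ctrl+vehicle (wildtype cells with siCtrl and no FGF2) and Y/T dKD+FGF2 (siRNA against Yap and Taz, with FGF2), each with 3 replicates of either day. They are used below to ask whether a change over time differed without FGF2 or under the knockdown. All libraries come from 1 cell line in culture, with FGF2 added to the medium.

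In the sample labels each day is its own batch. Time in the medium and batch therefore cannot be told apart in any comparison of d5 with d2.5, and this holds for every fold change below. A shift shared by all libraries of a day would cancel in the difference of the time effect between 2 treatments, which was tested separately. The labels do not say that replicates were separate cultures, so p-values measure the spread between these samples, which may be technical. In bulk RNA, fewer cells of a type and less RNA per cell cannot be told apart.

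FGF2 binds FGF receptors, which signal through the kinases ERK1/2 to immediate early genes and to inhibitors that feed back on the pathway. In NC-derived mesenchyme FGF signalling favours division and holds back osteogenesis, the course in which cells leave the cell cycle, switch on the transcription factors Runx2 and Sp7 (Osterix), and deposit and mineralize a collagen matrix. The same progenitors can also take on features of cartilage or of contractile mesenchyme.

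Gene counts per library were between 12821115 and 14004459 at d2.5 and between 11088576 and 12801125 at d5. Reads counted on no gene, unmapped reads included, made up 30.8% to 32.8% of a library, and unmapped reads alone 23.7% to 26.3%. Replicates of a day correlated at r = 0.994 or above in log2 CPM (CPM, counts per 1000000 counts of the scaled library), against 0.853 to 0.867 between days, and no library stood apart. The 10 genes with the most counts took 5.23% to 5.77% of the counts at d2.5 and 9.59% to 10.8% at d5, when Col1a2, Postn, Col1a1 and Col3a1 led. Scaling by TMM factors allowed for this, with factors of 1.042 to 1.052 at d2.5 and 0.945 to 0.962 at d5. The median log2 fold change of all genes was 0.02 after this scaling and -0.12 with library totals alone, so that changes smaller than this shift depend on the scaling.

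Most expressed genes changed between the days. Of 13562 genes tested, 11048 (81.5%) passed an adjusted p of 0.05, with 5606 (41.3%) higher and 5442 (40.1%) lower at d5 (edgeR's quasi-likelihood test, Benjamini-Hochberg adjusted, n = 3 and 3). With library totals alone the split was 4840 higher and 6246 lower. The replicates of the days did not overlap for 11188 genes (82.5%). A change of at least 2-fold was called for 4237 genes (31.2%), of which 2258 were higher and 1979 lower, and one of at least 8-fold for 528 higher and 325 lower genes. The median size of a called change was 0.78 on the log2 scale. Each list below is read against these shares. Values of a gene are given in CPM per library in the order of replicates 1 to 3, and log2 fold changes with a standard error. This error was derived from the test statistic and is too small where a day has few counts.

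The libraries were first read for markers of cell type. Of 13 NC markers, 8 passed the filter on low counts, among them Sox9, Snai2, Twist1 and Tfap2a, while Sox10, Foxd3 and Zic1, the markers of premigratory and migrating NC cells, were at 0 counts in all 6 libraries. Tfap2b held 12 and 9 counts over the 3 libraries of d2.5 and d5. These 3 factors were thus not detected on either day, while Pax3, another early NC factor, was counted and rose (2.67 ± 0.13). Of 8 osteoblast markers 5 were tested, 4 were higher at d5 and 1 (Ibsp) was not called, and the summed level of the list was 2369 to 2489 CPM at d2.5 and 16206 to 17899 CPM at d5, most of it Col1a1. Bglap, which encodes osteocalcin of mature osteoblasts, stayed under the filter with 4 and 13 counts over the libraries of a day. Haematopoietic markers summed to 10.8 to 11.6 CPM at d2.5 and 5.07 to 6.95 CPM at d5, with 3 of 12 tested and Adgre1, Cd3e, Hbb-bs, Lyz2 and Tyrobp at 0. Endothelial markers were at 147 to 156 and 151 to 160 CPM, with 3 of 12 tested and Cdh5, Cldn5, Emcn, Kdr, Sox17 and Tie1 at 0. None of the 3 tested was called by edgeR's quasi-likelihood test or DESeq2, nor had an unadjusted p under 0.05. Epithelial markers summed to 25.5 to 26.9 CPM at d2.5 and 1.37 to 1.60 CPM at d5, with the fall carried by Krt19, a keratin of simple epithelia, which fell by 5.32 on the log2 scale (adjusted p = 4.9e-15).

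The genes with the largest rises were at or near 0 at d2.5. Egfl6, an EGF-repeat protein of the matrix, had no count at d2.5 and 52.2, 34.6 and 48.5 CPM at d5, at least 623-fold higher against a floor of 3 counts over the d2.5 libraries. Fam198a also had no count at d2.5 and reached 22.4, 15.2 and 18.7 CPM, at least 259.6-fold higher. Fibromodulin (Fmod), a small leucine-rich proteoglycan that binds collagen fibrils, was at 0.506, 0.300 and 0.205 CPM at d2.5 and at 532, 499 and 513 CPM at d5. These values did not overlap, with a log2 fold change of 10.54 ± 0.09 (adjusted p = 1.4e-22). The collagenase gene Mmp13, of hypertrophic cartilage and bone remodelling, went from 0.361, 0.375 and 0.478 CPM to 589, 540.2 and 570.1 CPM (10.41 ± 0.09, adjusted p = 1.3e-22). Lipoprotein lipase (Lpl) had 1 count at d2.5 and 1508 at d5, a ratio of 1873 with a 95% counting interval of 336 to 74028. The other genes with the largest rises were the flavin monooxygenases Fmo1 (11.13 ± 0.09) and Fmo2 (10.06 ± 0.23), Megf6 (10.20 ± 0.21), the selenium carrier Selenop (9.89 ± 0.20) and the atypical chemokine receptor Ackr4 (9.83 ± 0.18), with adjusted p-values between 1.4e-22 and 4.5e-17.

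The genes with the largest falls reached low levels at d5. Areg, which encodes the EGF receptor ligand amphiregulin, was at 12.5, 12.8 and 15.1 CPM at d2.5 and 0, 0 and 0.274 CPM at d5, 565 counts against 3, a ratio of 152 with a 95% counting interval of 51.6 to 737. Dmp1, an acidic phosphoprotein of osteocytes, was at 479, 457 and 465 CPM at d2.5 and fell to 6.95, 6.12 and 5.94 CPM, a log2 fold change of -6.20 ± 0.06 (adjusted p = 3.2e-22). Dkk2, an antagonist of Wnt co-receptors, fell from 53.3, 54.9 and 56.1 CPM to 1.69, 0.331 and 1.10 CPM (-5.75 ± 0.16, adjusted p = 7.0e-16). All 3 d5 libraries lay below all d2.5 libraries for each of these genes. The Hedgehog antagonist Hhip (-5.91 ± 0.33), Ankrd37 (-6.24 ± 0.30), a target of hypoxia-inducible factor, the secretory granule gene Ptprn (-5.95 ± 0.10), the interleukin receptor subunit Il18rap (-5.94 ± 0.15), Adm2 (-5.65 ± 0.28) and Tmem74 (-5.58 ± 0.15) completed this group, together with the calcium channel gene Cacna1i, which went from 205 counts to 1.

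**Figure D1:**
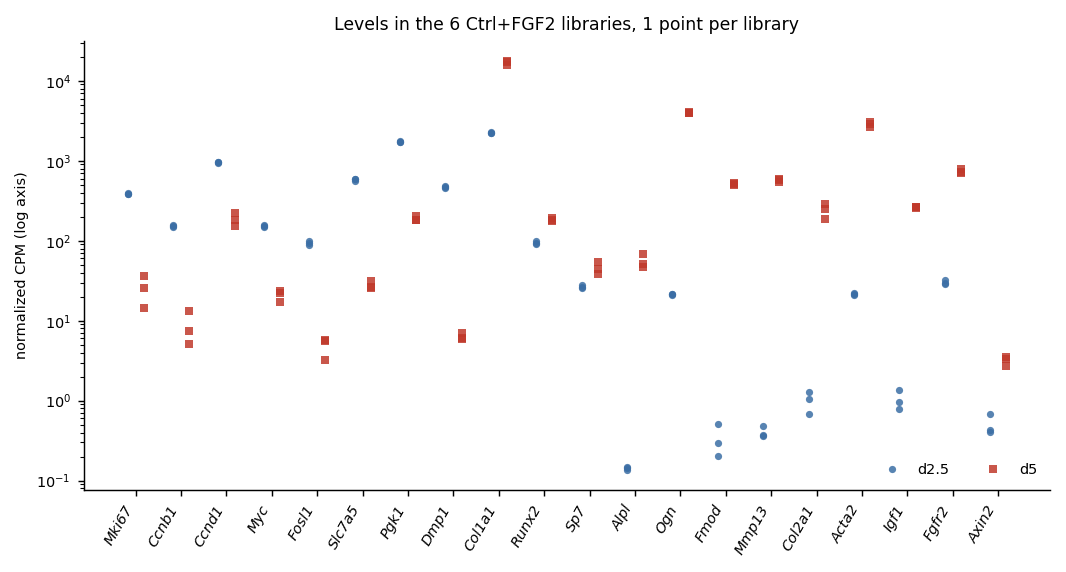
Normalized CPM on a log axis of 20 genes, with 1 point for each of the 3 libraries of d2.5 (circles) and d5 (squares) in Ctrl+FGF2. The replicates of the days do not overlap for any gene shown, the genes from Mki67 to Dmp1 on the left sit lower at d5, and those from Col1a1 to Axin2 on the right sit higher.

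Genes of cell division fell together. All 68 genes of the G2 and M phase list were lower at d5, their median log2 fold change being -3.72, and all 53 S phase genes were lower, with a median of -2.28. DESeq2 called 68 and 52 of them lower. In all genes tested 40.1% were lower and the median was 0.02. Mki67, the gene of the proliferation antigen Ki-67, was at 389, 388 and 399 CPM at d2.5 and at 36.5, 14.4 and 25.5 CPM at d5 (-3.96 ± 0.14, adjusted p = 1.3e-14). Ccnb1, the cyclin that drives entry to mitosis, was at 159, 151 and 150.4 CPM and then at 13.2, 5.13 and 7.41 CPM (-4.18 ± 0.13, adjusted p = 3.0e-15). Among the d5 libraries replicate 1 was highest and replicate 2 lowest for both genes, and all 3 lay far below the d2.5 range. The largest falls of the list were in the kinetochore motor Cenpe (-4.30 ± 0.14), the condensin subunit Ncapg (-4.25 ± 0.14) and the mitotic kinase Plk1 (-4.23 ± 0.14). In the S phase list E2f8 (-4.19 ± 0.13), Uhrf1 (-4.02 ± 0.10), Mcm10 (-3.94 ± 0.15) and the histone chaperone Asf1b (-3.73 ± 0.16) fell most, while the sliding clamp gene Pcna fell by 1.51. Summed over the list, G2 and M phase genes were at 7895, 7860.2 and 7951 CPM at d2.5 and at 1023, 586 and 803 CPM at d5. The spread among the d5 libraries was thus wider than among those of d2.5, and each fit that left out 1 library still called all 68 genes lower.

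Promoters of the dividing-cell genes are shown because the members moved as a block and their promoters are known for 2 short elements, the cell cycle gene homology region (CHR, letters TTTGAA) and E2F sites (searched as TTTCCCGC, TTTGGCGC or TTTCGCGC). Both strands of the 250 bases before each start site were searched in RefSeq promoters (GRCm38.p6), which were on hand for 9480 of the 13562 genes tested. CHR letters were in the promoters of 21 of 57 G2 and M phase genes (36.8%) and of 12.5% of all genes, E2F letters in those of 10 of 44 S phase genes (22.7%) and of 3.59% of all genes. Of 2827 matches of any motif searched, 34 shared bases with a match of another. A match is a run of letters and not a shown binding site. In the windows below the CHR is in capitals, read 5′ to 3′ on the strand of the gene, and starts 18, 29 and 116 bases before the start site of Cdc20 (chr4:118437344-118437378 on the minus strand), Ube2c (chr2:164769883-164769922 on the plus strand, where the reverse complement is read) and Mki67 (chr7:135716473-135716512 on the minus strand).
Cdc20: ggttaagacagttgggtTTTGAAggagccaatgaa
Ube2c: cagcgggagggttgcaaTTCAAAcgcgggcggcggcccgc
Mki67: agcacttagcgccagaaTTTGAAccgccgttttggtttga
Cdc20 activates the anaphase-promoting complex and Ube2c is its ubiquitin-conjugating enzyme. Cdc20 fell by 3.93 and Ube2c fell by 4.02 on the log2 scale.

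G1 regulators were split. Of 19 tested, 11 were lower and 7 higher. Ccnd1, the D cyclin that mitogens induce, was at 945, 959.5 and 963 CPM at d2.5 and at 220.4, 153 and 182 CPM at d5, with no overlap (-2.37 ± 0.08, adjusted p = 6.8e-15). The genes of its partner kinases Cdk6 (-1.54 ± 0.05) and Cdk4 (-0.45 ± 0.03) and of the pocket protein Rbl1 (-1.97 ± 0.08) fell as well. Cdkn1c, the CDK inhibitor p57, rose from 3.69, 4.35 and 3.55 CPM to 49.5, 41.6 and 40.4 CPM (3.50 ± 0.11, adjusted p = 6.3e-15). Cdkn1b (p27) rose by 0.72 and the pocket protein gene Rbl2 by 1.15, but Cdkn1a (p21) fell by 1.16. The CDK inhibitors therefore did not move in 1 direction.

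Genes of growth and biosynthesis fell as well. All 32 genes of ribosome biogenesis were lower (median -1.74), with the largest falls in Dkc1 (-2.54 ± 0.07) and the snoRNP proteins Nop56 (-2.38 ± 0.04) and Fbl (-2.29 ± 0.08). Of 29 tested genes of the amino acid response, which the transcription factor Atf4 drives, 28 were lower and 1 was higher (median -2.84). Slc7a11, the cystine transporter, fell from 277, 293 and 295 CPM to 8.55, 4.30 and 6.68 CPM (-5.49 ± 0.09, adjusted p = 6.6e-19). Slc7a5, a transporter of large neutral amino acids, fell from 552, 596 and 598 CPM to 25.4, 31.4 and 26.7 CPM (-4.38 ± 0.06, adjusted p = 3.2e-20). The pseudokinase gene Trib3 (-4.92 ± 0.14) and the mitochondrial folate enzyme gene Mthfd2 (-4.55 ± 0.06) showed falls of a like size. Of 30 genes of glycolysis and hypoxia 26 were lower and 2 higher (median -1.35). Pgk1, a glycolytic kinase, went from 1771, 1738 and 1742 CPM to 207, 181 and 181 CPM (-3.21 ± 0.04, adjusted p = 4.0e-20). Car9, a carbonic anhydrase induced by hypoxia, went from 245 counts to 4. Of 33 genes of sterol and fatty acid synthesis 32 were lower and 1 higher (median -1.5), among them Idi1 (-2.57 ± 0.06), Msmo1 (-2.17 ± 0.05) and Fasn (-1.57 ± 0.04). Fdps (-2.77 ± 0.19) is uncertain, since 26.7% of its exon bases are shared with Gm43738 on the same strand. Lysosome and autophagy genes moved the other way, with 37 of 41 higher, 1 lower and a median of 1.00, led by the cathepsin genes Ctsk (4.74 ± 0.52) and Ctsf (3.77 ± 0.10) and by Hexa (2.52 ± 0.06). Of these Ctsk had a low level, averaging under 1 in log2 CPM. In oxidative phosphorylation 20 of 38 genes were lower and 10 higher, with a median of -0.11, a shift smaller than the one between scalings.

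Promoters of 3 genes of the amino acid response are shown for the C/EBP-ATF response element (CARE, searched as TGATGNAA on both strands), since this list fell nearly whole. Its letters were in the promoters of 8 of 25 genes of the list (32%) and of 2.32% of all genes. The element, in capitals, starts 23 bases before the start of Asns (chr6:7693210-7693249 on the minus strand), 66 before that of Slc7a11 (chr3:50443655-50443696 on the minus strand) and 193 before that of Chac1 (chr2:119351032-119351073 on the plus strand, reverse complement). Asns makes asparagine, and Chac1 degrades glutathione.
Asns: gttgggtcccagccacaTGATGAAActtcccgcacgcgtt
Slc7a11: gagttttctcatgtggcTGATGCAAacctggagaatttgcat
Chac1: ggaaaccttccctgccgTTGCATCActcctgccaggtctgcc
Asns fell by 3.84 and Chac1 fell by 4.05 on the log2 scale. The other genes with the element changed less, namely Vldlr (-3.04), Nupr1 (-2.55), Pck2 (-1.63), Pycr1 (-0.61) and Atf3 (-0.44). Sterol element letters (TCACNCCAC) were in 1 of 22 promoters of the sterol list (4.55%) and in 1.2% of all genes.

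The readout of ERK signalling fell in part. Of 41 tested genes of ERK feedback and early response, 30 were lower and 8 higher at d5, with a median of -0.89. Among the inhibitors that ERK induces, Dusp6, a phosphatase of ERK, was at 128, 132 and 130.2 CPM at d2.5 and at 29.9, 26.1 and 26.6 CPM at d5 (-2.24 ± 0.05, adjusted p = 6.3e-17). Dusp4 (-3.75 ± 0.11) and Spry4 (-1.52 ± 0.08) fell too, whereas Spry1 was at 0.52 (adjusted p = 0.0694). Among the factors downstream of ERK, Fosl1 fell from 88.5, 99.4 and 94.2 CPM to 5.73, 3.23 and 5.58 CPM (-4.29 ± 0.10, adjusted p = 1.4e-16). Myc, a driver of growth, went from 150.1, 159 and 153 CPM to 23.4, 17.1 and 21.9 CPM (-2.90 ± 0.07, adjusted p = 9.5e-17). The Pea3 factors Etv4 (-3.64 ± 0.06) and Etv5 (-3.19 ± 0.05) also fell. Other targets rose. Egr1 (2.51 ± 0.07), Egr2 (3.90 ± 0.31, with a mean log2 CPM under 1), Fos (3.26 ± 0.17) and Dusp1 (2.21 ± 0.10) were higher at d5, and so was the receptor gene Epha4, from 0.940, 2.02 and 1.64 CPM to 40.9, 36.7 and 35.9 CPM (4.62 ± 0.14, adjusted p = 2.9e-15). Members of this list thus moved in both directions. The cytokine gene Lif fell from 8.31, 9.15 and 8.95 CPM to 1.60, 1.32 and 1.01 CPM (-2.74 ± 0.18, adjusted p = 1.2e-10).

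Ligands and receptors of the FGF pathway itself rose. Of 21 tested, 16 were higher and 3 lower, with a median of 1.27. Fgfr2, a receptor active in osteoprogenitors, was at 31.9, 28.4 and 30.0 CPM at d2.5 and at 785, 705 and 724 CPM at d5, all 3 of them above the d2.5 range (4.61 ± 0.05, adjusted p = 4.1e-21). Fgfr3, a receptor known from cartilage, rose from 1.23, 0.975 and 0.683 CPM to 28.0, 18 and 20.9 CPM (4.52 ± 0.23, adjusted p = 3.0e-12), and Fgfr1 rose less (0.90 ± 0.04). Fgf18, a ligand of both bone and cartilage, had no count at d2.5 and 6.48, 6.04 and 5.58 CPM at d5, at least 84.0-fold higher against the floor of 3 counts. The co-receptor Gpc4 (3.65 ± 0.12) and the cells' own Fgf2 (2.08 ± 0.10) rose too, while Fgf13 (-1.12 ± 0.10) and Fgf10 (-0.89 ± 0.05) fell. Counts of Fgf2 are of endogenous RNA, since the factor added to the medium is a protein.

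**Figure D2:**
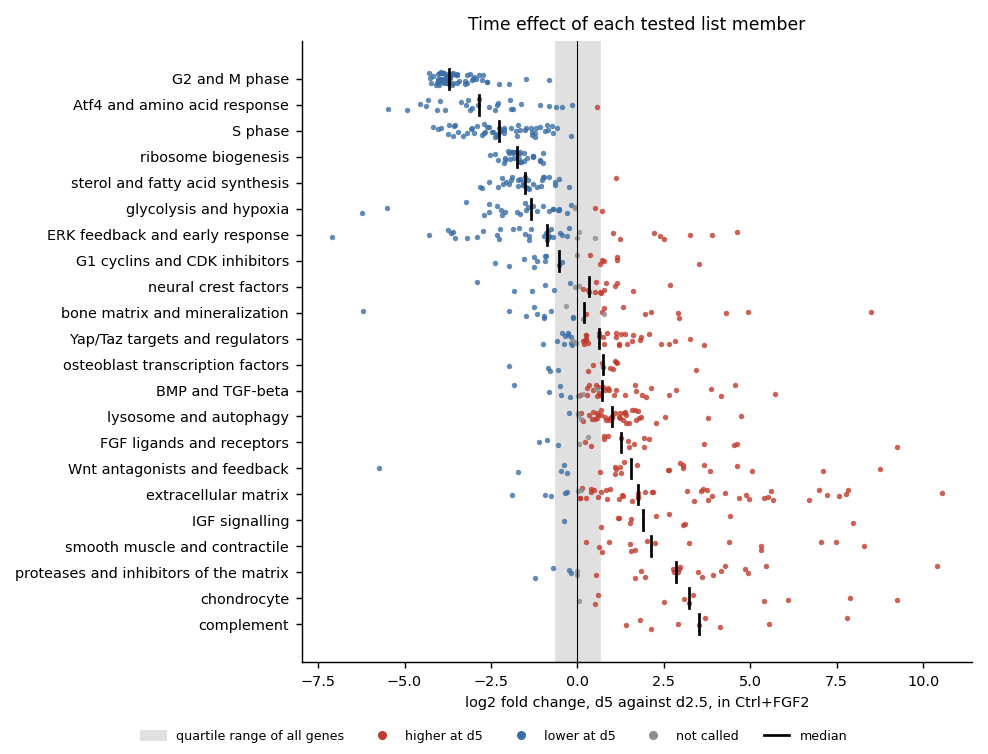
Log2 fold change, d5 against d2.5 in Ctrl+FGF2, of every tested member of 22 gene lists, 1 point per gene, coloured by the call at an adjusted p of 0.05, with a black bar at the median of each list. The grey band runs from the lower to the upper quartile of all 13562 genes (-0.61 to 0.64). The medians of the division, amino acid response and ribosome lists lie left of the band, and those of the complement, cartilage, protease and contractile lists lie right of it.

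Transcription factors of the osteoblast lineage rose by modest amounts. Of 14 tested, 10 were higher and 4 lower, with a median of 0.73. Runx2, the master factor of the lineage, was at 98.3, 92.4 and 92.7 CPM at d2.5 and at 191, 181 and 176 CPM at d5 (0.95 ± 0.04, adjusted p = 4.3e-13). Sp7 was at 28.0, 25.8 and 26.6 CPM and then at 53.8, 38.1 and 44.1 CPM (0.75 ± 0.10, adjusted p = 1.1e-06). For both the days did not overlap, though Sp7 varied more among the d5 libraries. Dlx5 rose most (3.44 ± 0.50), and Msx1 (1.08 ± 0.12), Msx2 (1.14 ± 0.28), Foxc1 (1.03 ± 0.04) and Zfp467 (1.11 ± 0.10) rose by about 2-fold. Dlx5 and Msx2 had low levels, averaging under 1 in log2 CPM. Twist2, a repressor of Runx2 action, fell by 1.97.

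Bone matrix and mineralization genes were split, with 11 higher, 10 lower and 3 not called of 24 tested and a median of 0.20, shares close to those of all genes. Alpl, the tissue-nonspecific alkaline phosphatase that mineralization requires, was at 0.145, 0.150 and 0.137 CPM at d2.5, which is 2 counts per library, and at 68.4, 46.9 and 51.5 CPM at d5 (8.50 ± 0.27, adjusted p = 6.3e-15). Col1a1, the main collagen of bone, was at 2319.7, 2208 and 2251 CPM and then at 15844, 17609 and 17414 CPM (2.91 ± 0.04, adjusted p = 2.5e-20). Every d5 library was above the d2.5 range for both. Omd (4.30 ± 0.06), the parathyroid hormone receptor gene Pth1r (4.93 ± 0.18), the collagen crosslinker Lox (2.93 ± 0.04), Sparc (2.13 ± 0.03) and Col1a2 (1.95 ± 0.03) rose as well. Beside Dmp1, osteopontin (Spp1, -1.97 ± 0.05), the phosphate and pyrophosphate regulators Phex (-1.48 ± 0.15), Ank (-1.25 ± 0.03) and Enpp1 (-1.16 ± 0.11), and the phosphate transporters Slc20a1 (-0.75 ± 0.08) and Slc20a2 (-0.96 ± 0.05) fell. Ibsp (bone sialoprotein) was at 42.9, 41.5 and 42.1 CPM and then at 48.0, 22.4 and 30.7 CPM, and was not called (-0.34 ± 0.16, adjusted p = 0.0553). Its d5 libraries lay on both sides of the d2.5 range. Its log2 fold change was -0.67 without replicate 1 of d5, which passed the threshold, and -0.10 without replicate 2 of d5, which did not.

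Matrix genes beyond bone rose widely. Of 51 tested genes of the extracellular matrix 44 were higher and 5 lower, with a median of 1.76, and their summed level was 18931 to 19171 CPM at d2.5 and 74716 to 83158 CPM at d5. Small leucine-rich proteoglycans showed the largest changes. Osteoglycin (Ogn) went from 21.3, 21.4 and 20.8 CPM to 4128, 3980.1 and 3964 CPM (7.57 ± 0.04, adjusted p = 5.3e-25), and asporin (Aspn) from 13.5, 9.52 and 11.1 CPM to 2701, 2279 and 2440.3 CPM (7.76 ± 0.08, adjusted p = 2.1e-21). Lumican (Lum, 7.83 ± 0.13), decorin (Dcn, 7.22 ± 0.15) and Prelp (6.99 ± 0.08) rose too, whereas biglycan (Bgn) fell by 0.29. Among matricellular proteins, Postn, which marks periosteum and suture mesenchyme, went from 1481, 1493 and 1493 CPM to 17626, 22182 and 19946 CPM (3.74 ± 0.06, adjusted p = 3.5e-19). The rise extended to other matrix proteins. The fibril-associated collagen gene Col12a1 (5.60 ± 0.04) and Thbs1 (4.95 ± 0.04) rose, and the elastic fibre genes Eln (5.52 ± 0.51) and Mfap4 (6.69 ± 0.54) did so from low levels. Versican (Vcan), a proteoglycan of loose early mesenchyme, fell by 1.89 (adjusted p = 8.0e-16). Proteases of the matrix and their inhibitors followed with 18 of 24 higher, 4 lower and a median of 2.85. Beside Mmp13, stromelysin 3 (Mmp11, 4.26 ± 0.04) and the aggrecanases Adamts5 (4.85 ± 0.08) and Adamts4 (4.16 ± 0.10) rose, and the inhibitor gene Timp1 fell by 1.22. AP-1 letters (TGANTCA) were in 3 of 15 promoters of this list (20%) and in 5.4% of all genes. The 3 genes were Mmp10 (4.93), Mmp13 (10.41) and Plaur, which went the other way (-0.69).

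Cartilage and contractile genes were part of this rise. Of 11 tested cartilage genes 10 were higher, with a median of 3.21, and a filter of at least 10 counts in every library left 6 of these tested and called. Col2a1, the collagen of cartilage, was at 1.30, 1.05 and 0.683 CPM at d2.5 and at 285, 188 and 248 CPM at d5 (7.88 ± 0.21, adjusted p = 5.1e-16). Col9a2 had 4 counts at d2.5 and reached 77.0, 54.4 and 61.5 CPM at d5 (9.24 ± 0.28). Matn4 (6.08 ± 0.42), Col11a1 (5.41 ± 0.04) and Col10a1 (3.33 ± 0.23), a collagen of hypertrophic chondrocytes, rose too. The factor of the lineage was not called, with Sox9 at 86.7, 79.3 and 81.9 CPM and then at 84.9, 84.2 and 87.0 CPM (0.05 ± 0.04, adjusted p = 0.343). Chad, Ihh, Matn1 and Snorc, further cartilage genes, were at 0 in all 6 libraries. All 16 tested contractile genes were higher (median 2.12). Acta2, smooth muscle actin, was at 20.9, 21.8 and 21.9 CPM and rose to 2655, 3027 and 2876 CPM (7.05 ± 0.05, adjusted p = 7.0e-23). The myosin light chain gene Myl9 rose from 0.795, 0.600 and 0.819 CPM to 250.1, 225 and 231 CPM (8.29 ± 0.10, adjusted p = 5.8e-21). The days were far apart for both genes. Lmod1 (7.47 ± 0.14) and Tagln (5.32 ± 0.11) followed, while Myh11, Des, Cnn1 and Myocd, which mark mature smooth muscle, stayed under the filter.

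The CArG box, the element that serum response factor binds, was in the promoters of 5 of 14 contractile genes (35.7%) and of 1.41% of all genes. Windows of 2 of them are shown since all members rose, with the box in capitals. It starts 161 bases before the start of Myl9 (chr2:156775286-156775329 on the plus strand) and 56 before that of Cnn2 (chr10:79988527-79988570 on the plus strand), a calponin that binds actin.
Myl9: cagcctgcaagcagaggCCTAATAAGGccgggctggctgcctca
Cnn2: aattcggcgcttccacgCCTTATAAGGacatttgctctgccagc
Cnn2 rose by 2.0 on the log2 scale. Of the other genes with the box, Vcl rose by 0.70 and Filip1l by 0.26. Srf, the gene of the factor itself, also has the box and rose by 0.62 (adjusted p = 2.4e-08). All of these but Myl9 rose by less than the list median of 2.12.

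Signalling genes of other pathways mostly rose. In the Wnt list 19 of 24 were higher and 5 lower, with a median of 1.54. Axin2, a direct target of Wnt signalling, was at 0.434, 0.675 and 0.410 CPM at d2.5 and at 3.57, 3.31 and 2.74 CPM at d5 (2.65 ± 0.28, adjusted p = 1.0e-07). Another feedback gene, Nkd1, had no count at d2.5 and 143 at d5, at least 59.2-fold higher. Secreted antagonists went both ways, as Frzb (7.09 ± 0.14) and Sfrp1 (5.05 ± 0.09) rose and Dkk2 fell. In the BMP and TGF-beta list 28 of 36 were higher and 5 lower (median 0.70), with Bmp3 (5.70 ± 0.21) and Bmp4 (4.17 ± 0.12) among the ligands, Gdf5 (4.55 ± 0.33) of the joints and Chrdl1 (3.88 ± 0.09) among the antagonists. In the IGF list 11 of 12 were higher and 1 lower (median 1.91), so that nearly the whole list rose. Igf1, the growth factor, went from 0.795, 1.35 and 0.956 CPM to 253, 264 and 262 CPM (7.97 ± 0.08, adjusted p = 1.4e-21). Cxcl12, a chemokine of stroma, went from 9.83, 8.40 and 9.83 CPM to 456, 446 and 432 CPM (5.57 ± 0.05, adjusted p = 6.6e-22). All 9 tested complement genes rose (median 3.50), among them C1s1 (7.81 ± 0.16), C1ra (5.53 ± 0.08) and C3 (3.68 ± 0.14). In the retinoic acid pathway Aldh1a1 (7.17 ± 0.12) and Dhrs3 (6.20 ± 0.17) rose while the binding protein gene Crabp1 fell by 2.82.

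The siRNA in these cells was the control, and RNA of Yap and Taz moved little next to the changes above. Yap1 was at 135, 129.8 and 131 CPM at d2.5 and at 162, 149 and 154 CPM at d5 (0.23 ± 0.04, adjusted p = 2.8e-05), or 0.10 with library totals alone. Wwtr1, which encodes Taz, was at 227, 225 and 229.5 CPM and then at 218, 222 and 219 CPM (-0.05 ± 0.03, adjusted p = 0.146). With library totals alone Wwtr1 was at -0.18 and was called. Of 42 targets and regulators of Yap/Taz 30 were higher and 10 lower, with a median of 0.63. Ccn2, a canonical target, rose from 165, 164 and 169 CPM to 372, 425 and 389 CPM (1.25 ± 0.04, adjusted p = 1.3e-14), and Ccn1 (1.58 ± 0.04) and the cofactor gene Vgll3 (3.67 ± 0.05) rose, while another target, Ankrd1, fell by 0.44. Among NC and stemness factors 13 of 21 were higher and 6 lower (median 0.33). Sox2 was at 30.1, 28.1 and 30.0 CPM and then at 16.3, 14.2 and 16.0 CPM (-0.93 ± 0.08, adjusted p = 4.3e-09), and Klf4 (-1.30 ± 0.06) and Nes (-1.83 ± 0.19) fell too. Gdpd5, a phosphodiesterase, fell by 1.11 (adjusted p = 4.4e-07).

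The same interval was then read in Ctrl+vehicle cells, which share no library with Ctrl+FGF2. There 8815 of 13369 genes were called, with 32.9% of the tested genes higher and 33.1% lower, and 2056 of them by at least 2-fold, against 4237 with FGF2. Of 7542 genes called in both (68.3% of the calls with FGF2 and 85.6% of those with vehicle), 6404 (84.9%) moved in the same direction and 1138 in opposite directions, 608 of these higher with FGF2 and lower with vehicle. The time effect itself differed between the treatments for 8470 of 14008 genes, with 31.3% more positive and 29.2% more negative with FGF2 (a term for the difference, in a fit of 12 libraries, edgeR's quasi-likelihood test). With library totals alone 5123 genes were more positive and 3387 more negative, against 4383 and 4087 after TMM scaling. All 68 G2 and M phase genes and all 53 S phase genes had a more negative time effect with FGF2. With vehicle 61 of the 68 were called lower, and of the 53 S phase genes 37 were lower and 3 higher. The median changes of these 2 lists with vehicle were -0.85 and -0.46. On the scale of the 12 libraries the summed G2 and M phase level was 3381, 3791 and 3610 CPM with vehicle and 7766, 7679 and 7802 CPM with FGF2 at d2.5. At d5 it was 2574, 1536 and 2039.5 CPM and 996, 576 and 786 CPM. FGF2 libraries were thus above vehicle libraries at d2.5 and below them at d5. Of 29 amino acid response genes 25 were more negative and 1 more positive with FGF2, where the median with vehicle was -0.35. In ribosome biogenesis 31 of 32 were more negative, and in sterol and fatty acid synthesis 21 of 33 were more negative and 3 more positive, with a vehicle median of -1.02. Of 17 contractile genes tested for this difference 16 were more positive with FGF2, as were 9 of 10 complement genes. Summed contractile genes were at 3635 to 3954 CPM with vehicle and 2205 to 2247 CPM with FGF2 at d2.5. At d5 they were at 7926 to 8298 CPM and 9617 to 10305 CPM, so FGF2 libraries ended above vehicle. Complement genes were at 362 to 384 CPM and 107 to 114 CPM at d2.5. At d5 they were at 899 to 972 CPM and 862 to 864 CPM, so FGF2 libraries remained below vehicle.

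In the bone matrix and mineralization list 11 of 26 genes were more positive with FGF2 and 12 more negative, so the list went both ways. Among the genes described next are the 5 with the largest positive differences of those also called over time with FGF2 and at a mean log2 CPM of 1 or more. Alpl was at 102, 127 and 115 CPM with vehicle at d2.5 and at 168, 151 and 163 CPM at d5, where FGF2 libraries went from 0.142, 0.147 and 0.134 CPM to 66.6, 46.1 and 50.4 CPM. The difference of the time effects was 8.01 ± 0.34 (adjusted p = 3.1e-14), yet all 3 FGF2 libraries of d5 remained below the vehicle libraries. Sp7 fell with vehicle from 139, 221 and 184 CPM to 33.3, 38.7 and 34.3 CPM and rose with FGF2 from 27.5, 25.2 and 26.1 CPM to 52.4, 37.4 and 43.2 CPM, a difference of 3.10 ± 0.20 (adjusted p = 3.1e-11). Runx2 changed by -0.26 with vehicle (difference 1.21 ± 0.07, adjusted p = 6.9e-12). Col2a1 fell with vehicle from 573, 362 and 441 CPM to 164, 260.4 and 209 CPM (difference 9.0 ± 0.36, adjusted p = 1.8e-14), and at d5 the libraries of the treatments overlapped. Fmod was at 149, 153 and 149 CPM with vehicle already at d2.5 (difference 8.44 ± 0.13, adjusted p = 3.2e-21). The remaining genes with the largest positive differences were Col9a2 (7.91 ± 0.60, adjusted p = 3.9e-10) and the axon guidance gene Draxin (8.16 ± 0.84, adjusted p = 9.8e-08). Draxin had no count with FGF2 at d2.5, so that its difference depends on the prior count. Hey1 and Frzb had differences of 6.29 ± 0.30 and 6.47 ± 0.20.

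The 5 largest negative differences by the same rule were in genes that were higher with FGF2 than with vehicle at d2.5. Ccnd1 and Lif are given beside them. Ccnd1 rose with vehicle from 112, 116 and 118 CPM to 198, 182 and 186 CPM while it fell with FGF2 from 930.0, 937 and 945 CPM to 215, 151 and 179 CPM, a difference of -3.08 ± 0.11 (adjusted p = 1.9e-15), and at d5 the libraries of the treatments overlapped. Lif rose with vehicle from 1.31, 0.838 and 1.08 CPM to 3.01, 2.96 and 3.91 CPM, and its FGF2 libraries fell below those at d5 (difference -4.36 ± 0.30, adjusted p = 6.4e-11). Il1rl1, the receptor of interleukin 33, rose with vehicle from 14.6, 11.3 and 13.8 CPM to 71.7, 119 and 97.0 CPM and fell with FGF2 from 173, 166 and 172 CPM to 24.1, 42.7 and 35.1 CPM, a difference of -5.18 ± 0.22 (adjusted p = 3.5e-14). For Il1rl1 the order of the treatments was thus turned round between the days, without overlap on either. Galnt3, a glycosyltransferase that protects Fgf23, did the same, from 1.79, 0.966 and 1.46 CPM to 9.23, 9.94 and 11.0 CPM with vehicle and from 9.38, 9.89 and 7.97 CPM to 1.46, 1.95 and 1.34 CPM with FGF2 (difference -5.34 ± 0.26, adjusted p = 3.6e-13). The phosphatase gene Dusp2 had a difference of -5.00 ± 0.47 (adjusted p = 9.5e-09), Hhip one of -6.76 ± 0.76 (adjusted p = 1.3e-07) and the pentraxin gene Nptx1 one of -5.38 ± 0.92 (adjusted p = 3.5e-05), the last 2 from vehicle levels under 1 CPM. Of 41 genes of ERK feedback and early response 28 were more negative with FGF2 and 6 more positive, where the median with vehicle was 0.34.

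**Figure D3:**
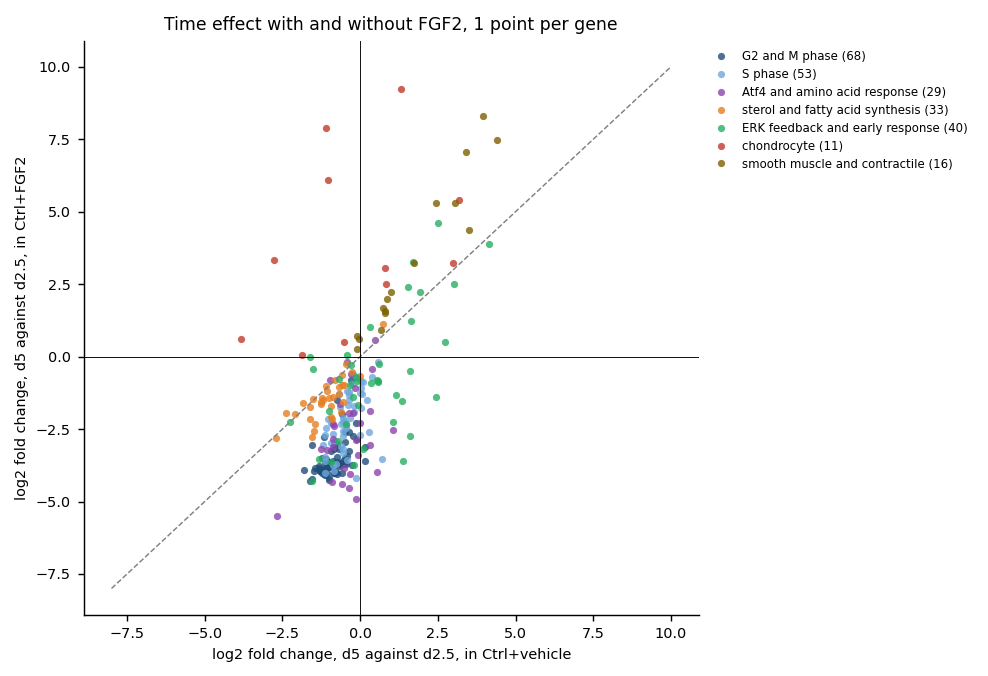
Log2 fold change, d5 against d2.5, of genes of 7 lists with FGF2 (vertical axis) against vehicle (horizontal axis), 1 point per gene tested in both, with the number of genes in brackets and a dashed line of equal change. Division genes and nearly all amino acid response genes lie below the line, contractile genes above it or beside it, and Col2a1, Matn4 and Col10a1 of the cartilage list sit at the upper left, higher over time with FGF2 and lower with vehicle.

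**Figure D4:**
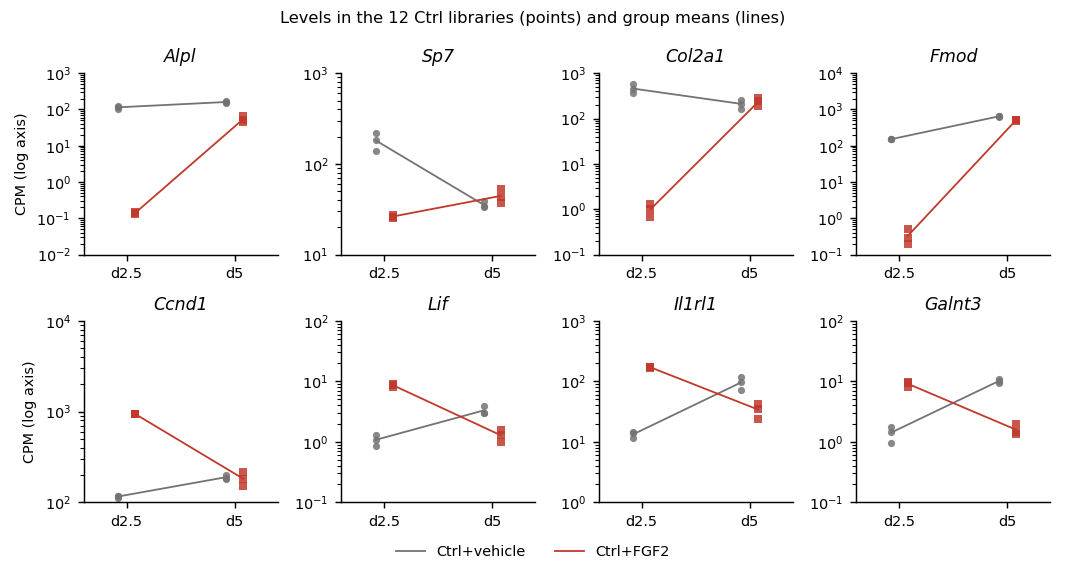
CPM on a log axis of 8 genes in the 12 Ctrl libraries, with points for libraries and lines joining the means of d2.5 and d5, for Ctrl+vehicle (grey) and Ctrl+FGF2 (red). In the upper row the FGF2 line starts below the vehicle line at d2.5 and lies closer to it at d5, and in the lower row it starts above and ends at or below it.

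With Yap/Taz knocked down, the time effect under FGF2 was mostly the same in direction. Of 9710 genes called in both Ctrl+FGF2 and Y/T dKD+FGF2 (87.9% and 89.6% of their calls), 9555 (98.4%) moved in the same direction. The size of the effect differed for 3340 of 13911 genes (24.0%), 345 of them by at least 2-fold. In the G2 and M phase list 47 of 68 genes fell more in Ctrl+FGF2 and 1 fell less, with a median of -3.04 in the knockdown cells. Of 41 genes of ERK feedback and early response 26 were more negative in Ctrl+FGF2 and 1 more positive. Fosl1 fell by 4.29 in Ctrl+FGF2 and changed by -2.62 in the knockdown cells (difference -1.65 ± 0.18, adjusted p = 4.4e-08), and Dusp4 changed by -1.80 there (difference -1.94 ± 0.16, adjusted p = 1.8e-10). Dmp1 changed by -4.05 in the knockdown cells (difference -2.14 ± 0.12, adjusted p = 4.3e-14), Ibsp by 1.05 (difference -1.37 ± 0.17, adjusted p = 5.1e-07) and Col1a1 by 3.44 (difference -0.52 ± 0.05, adjusted p = 4.1e-09). For Runx2 (-0.04 ± 0.06, adjusted p = 0.649) and Sp7 (-0.19 ± 0.11, adjusted p = 0.22) no difference passed the threshold. In sterol and fatty acid synthesis 16 of 33 genes fell less in Ctrl+FGF2 and 3 fell more or rose less, with Msmo1 at 0.76 ± 0.07 (adjusted p = 4.0e-09). The largest negative differences were those of Nptx1 (-2.96 ± 0.29), the ubiquitin ligase gene March4 (-2.72 ± 0.22) and Serpinb2 (-2.72 ± 0.36), an inhibitor of plasminogen activators, and the largest positive ones those of the phosphodiesterase gene Pde1a (3.0 ± 0.56), Klra1 (2.87 ± 1.02) and Gm45847 (2.81 ± 0.68), with adjusted p-values from 6.6e-11 to 0.039.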

How the data were processed

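Poly(A) RNA of O9-1 cells was sequenced, and the authors deposited 1 file of raw read counts per gene and library. Per the labels, the submitters' processing notes name FastQC, STAR, Picard and featureCounts and the mm10 genome. Their versions are not given in the sources used here. The deposited counts came in 3 columns, for unstranded, forward and reverse strand counting. The last of these, column 4, held 96.0% to 96.4% of stranded gene counts and was used. Gene names came from GENCODE M21, which matched 55154 of 55335 identifiers. Gene counts per library were 11088576 to 14004459 in the 6 libraries, and intervals and floors cover counting error only. Rows that name no gene (30.8% to 32.8% of a library) were left out.

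Groups followed the sample labels. Counts were filtered with filterByExpr, scaled by TMM over the libraries of each fit and tested with edgeR 4.0.16 (quasi-likelihood test, R 4.3.3), with Benjamini-Hochberg adjustment over all genes tested and a threshold of 0.05. The standard error of a log2 fold change was its size over the square root of F. It is not a direct estimate of the error. Where a day has few counts, as for Fmod, Mmp13, Alpl and Col9a2 at d2.5, it is smaller than counting error alone. Differences of the time effect were tested in fits of 12 libraries. Where a day had no count, a fold was taken against a floor of 3 counts over its libraries, and where it had 1 to 3, the ratio of counts is given with an exact 95% interval. The procedure was run on simulated counts in which few genes changed, in equal numbers up and down. Most genes changed in the data, so the simulation does not test the scaling under that condition. Replicate numbers were not treated as pairs in the main fits. Deviations from the mean of the day correlated at -0.010 to -0.003 between same-numbered libraries of the days (11992 genes). Within a day they correlated at -0.004 to 0.250 between Ctrl+FGF2 and Ctrl+vehicle and at -0.095 to -0.005 between Ctrl+FGF2 and Y/T dKD+FGF2. With 3 libraries per group these values cannot exclude a pairing within a day. Alternatives were DESeq2 1.42.0, other scaling factors, other filters, unstranded counts, all 18 libraries in 1 fit, a replicate block and leaving out each replicate.

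The comparison, the 37 gene lists and the genes named were chosen with earlier results of these data known. Named were genes the study follows, the 10 largest rises and 10 largest falls among called protein-coding genes whose replicates did not overlap and whose log2 CPM averaged 1 or more, up to 4 called members with the largest change in each list and others by role, and the 5 (vehicle) or 3 (knockdown) largest differences of the time effect in each direction. A few genes are not reported here.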

Additional observations from a re-analysis of the deposited data

Results flagged for a closer look

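Results are listed here because the effect of time differed between treatments by a test of the difference itself. Between Ctrl+FGF2 and Ctrl+vehicle this held for 8470 of 14008 genes, and between Ctrl+FGF2 and Y/T dKD+FGF2 for 3340 of 13911. Against vehicle, the differences of the log2 time effect were 9.0 for Col2a1, 8.44 for Fmod, 8.16 for Draxin, 8.01 for Alpl and 7.91 for Col9a2. In the other direction they were -6.76 for Hhip, -5.38 for Nptx1, -5.34 for Galnt3, -5.18 for Il1rl1 and -5.00 for Dusp2. Against the knockdown they were 3.0 for Pde1a, 2.87 for Klra1 and 2.81 for Gm45847, and -2.96 for Nptx1, -2.72 for March4 and -2.72 for Serpinb2. Draxin had no count with FGF2 at d2.5, Alpl had 6 and Col9a2 had 4 over the 3 libraries, and Hhip had 4 at d5, so the size of these differences rests on few counts in 1 group.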

How the results depend on the processing

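Across these alternatives no time effect with FGF2 changed sign among the called genes of the 172 named by a set rule. Genes named by role alone were not part of this check. Of the counts of genes, 168 kept within 1.5 times their main value and 3 did not, and of the counts over lists, 542 did and 13 did not. Genes called over time with FGF2 were 11048, against 10177 with DESeq2, 11044 with RLE factors, 11038 with upper-quartile factors, 11086 with library totals (4840 higher and 6246 lower), 9852 with at least 10 counts in every library, 12133 with no filter, 10972 with unstranded counts, 11358 with all 18 libraries and 10799 to 11093 without 1 replicate. A change of at least 2-fold left 4237 genes, 2258 higher and 1979 lower. With a replicate block, 10943 genes were called over time with FGF2, 8456 with vehicle, 8383 for the difference from vehicle and 3289 for that from the knockdown. Across the days 0 of 6 libraries correlated best with its own number, so no pairing was seen there. Within d5, deviations of the FGF2 and vehicle libraries correlated at 0.211 for replicate 1, 0.250 for replicate 2 and 0.012 for replicate 3. Between different numbers the range was -0.241 to 0.020. This is a hint of pairing within d5 that comes from the data and not from the labels.

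Lists of few tested genes moved most. With at least 10 counts in every library, 6 cartilage and 4 prostaglandin genes were called higher, 1 haematopoietic gene was higher, and 5 chemokine and 0 epithelial genes were lower. With no filter 5 glia and neuron genes and 1 endothelial gene were higher. With DESeq2 1 glia and neuron gene and 1 haematopoietic gene were higher. Without 1 replicate the higher glia and neuron genes were 1 to 3 (1 without replicate 1 or 3 of d2.5) and the haematopoietic ones 1 to 2 (1 without replicate 2 of either day). The stricter filter tested fewer genes (11993, against 13562), and whether this covers each loss was not counted. Elsewhere the cause was not tested. Ibsp passed the threshold with RLE factors, library totals, no filter, the replicate block or without replicate 1 of d5, and Wwtr1 with library totals. Depth limits genes of a few counts, where the fold rests on the prior count.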

Other observations

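Receptors and ligands of mesenchymal growth factors rose. In the list of PDGF, Hgf and Vegf signalling 15 of 20 genes were higher and 3 lower, with a median of 1.17. Pdgfra, a receptor of mesenchymal progenitors, was at 87.7, 91.3 and 90.2 CPM at d2.5 and at 599, 584 and 579.8 CPM at d5 (2.71 ± 0.03, adjusted p = 1.7e-20), without overlap. Pdgfrl (9.18 ± 0.20), Angpt1 (3.95 ± 0.06), a ligand of the receptor Tie2, and Kitl (2.21 ± 0.04), the ligand of Kit, rose too, while Vegfa fell by 1.5. Cadherins were higher for 6 of 9 genes and lower for 2, with Cdh11, the cadherin of osteoblasts and mesenchyme, going from 31.8, 29.9 and 29.2 CPM to 322, 271 and 288 CPM (3.27 ± 0.06, adjusted p = 4.5e-18). In the Hedgehog and retinoic acid list 11 of 17 were higher and 6 lower, among them the transcription factor gene Gli2 (2.68 ± 0.11) and the co-receptor gene Gas1 (2.21 ± 0.04). In the Notch list 6 of 9 were higher and 2 lower. The target Hey1 rose (3.76 ± 0.18) while Hes1 (-1.94 ± 0.14) and the ligand gene Jag2 (-3.86 ± 0.29) fell. In the prostaglandin and osteoclast coupling list 7 of 14 were higher and 4 lower. Ptgs2, the inducible cyclooxygenase, fell from 96.6, 91.4 and 97.5 CPM to 18.5, 21.3 and 21.4 CPM (-2.22 ± 0.06, adjusted p = 5.4e-16), and Ptgis, the prostacyclin synthase, rose by 7.21.

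Stress and immune genes were mixed. Of 24 targets of p53, 15 were lower and 8 higher (median -0.77), with Eda2r (-2.95 ± 0.11), Sesn2 (-2.84 ± 0.08) and Ccng1 (-1.27 ± 0.04) lower and Sesn1 (2.93 ± 0.05) and Fas (2.25 ± 0.12) higher. Sesn2 is a target of Atf4 as well. Of 21 chaperones of the endoplasmic reticulum 15 were higher and 5 lower (median 0.32), led by Fkbp14 (2.21 ± 0.08), which folds collagen. Of 18 chemokines and cytokines 9 were lower and 5 higher (median -0.45, against 1.38 with vehicle), with Ccl2 at -1.70 ± 0.17 and Cxcl10 at -2.90 ± 0.34. Of 30 interferon response genes 20 were higher and 3 lower (median 0.47), among them Ifit3 (2.08 ± 0.17), Ifi27 (1.64 ± 0.08) and Ifit2 (1.12 ± 0.08). The time effect of 22 of 32 of them was more positive in Ctrl+FGF2 than in Y/T dKD+FGF2, and of 1 more negative.

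Markers of other cell types gave small numbers. Of 9 adipocyte genes 4 were higher and 3 lower, with Lpl and the lipid droplet gene Plin4 (3.23 ± 0.09) among the former and Fabp4 (-2.82 ± 0.10) among the latter. Of 6 glia and neuron genes 3 were higher and 3 lower, with the neuronal tubulin gene Tubb3 at -4.06 ± 0.20 and the myelin gene Mbp at 1.95 ± 0.23, and Sox10 and Dcx at 0. Of 3 haematopoietic genes 2 were higher and 1 lower. Of a list of 44 collagen genes, made after values were seen, 30 were tested, with 28 higher and 2 lower. The summed level of the whole list was 16268 to 16582 CPM at d2.5 and 70522 to 77949 CPM at d5.

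The d5 libraries differed among themselves in division genes and in others, without 1 direction. Replicate 1 had the highest summed G2 and M phase level of the 3 (1023 CPM, against 586 and 803 CPM). It also had the highest level of Alpl, Col2a1, Matn4 and Ibsp, with Ibsp at 48.0, 22.4 and 30.7 CPM. Yet it had the lowest level of Col1a1, Postn and Acta2. Its summed levels were lowest for bone matrix (51133, 55575 and 54469 CPM), extracellular matrix (74716, 83158 and 79394 CPM) and contractile genes (9874.9, 10490 and 10218 CPM). The vehicle libraries of d5 had the same order of summed level by number (2574, 1536 and 2039.5 CPM on the scale of the 12 libraries), and the knockdown libraries of d5 had the reverse order (1059, 1236 and 1189 CPM). What links them was not tested.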
